A study of Mus musculus with 12 samples.

Results

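The GTPases of immunity-associated proteins (GIMAPs) are a family of lymphocyte proteins with roles in the survival of T and B cells. Transcripts of 8 mouse genes of the family, Gimap1, Gimap3, Gimap4, Gimap5, Gimap6, Gimap7, Gimap8 and Gimap9, were followed in regulatory T cells (Tregs), a lineage of CD4+ T cells that holds autoimmunity in check. The genes were chosen by their symbols and are 8 of the 24421 gene rows in each of 4 expression tables. All 8 were above the filter on low counts in every table.

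RNA sequencing of sorted Tregs was carried out in 4 groups of 3 libraries: islet 4-8, islet 12-4.4m1, spleen 4-8 and spleen 12-4.4m1. All came from NOD mice, a strain that develops autoimmune diabetes, at 6.8 weeks of age. The mice were retrogenic, meaning that their blood cells grew from bone marrow into which T cell receptor (TCR) genes had been introduced by retrovirus, and both TCRs of the study recognise insulin. The TCR 4-8 binds with high affinity and the TCR 12-4.4m1 with low affinity, and each affinity is represented by a single receptor. The design text describes the mice as retrogenic for both receptors, and the labels do not say which libraries share a mouse. Islet Tregs were taken from the pancreatic islets, which make insulin, and spleen Tregs from a lymphoid organ. The labels give neither the gate of the sort nor whether a group's libraries were made from different mice. The p-values then measure only how far these libraries scatter, which may be technical.

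GIMAPs bind guanine nucleotides through a shared GTPase domain, and several of them are anchored in intracellular membranes such as those of lysosomes, mitochondria or the endoplasmic reticulum. Loss of GIMAP5 shortens the life of T cells in mice and is the cause of the lymphopenia of BioBreeding rats, a line that develops autoimmune diabetes. In mice, Gimap1 is needed for mature T and B cells to persist. Human GIMAP6 binds an autophagy protein of the GABARAP family.

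On GRCm38 the 8 genes lie together on chromosome 6, within chr6:48647234-48770851, a stretch of 123618 bases, and each is annotated as protein-coding. In order of position they are Gimap8, Gimap9, Gimap4, Gimap6, Gimap7, Gimap1, Gimap5 and Gimap3, of which Gimap6 and Gimap3 are on the minus strand. Promoter windows running from 250 bases before to 50 bases after a start site were read for all 8 genes, from RefSeq on build GRCm38.p6. The windows of the 3 genes with the smallest p-values in the comparisons are shown: Gimap8 (chr6:48646984-48647283, plus strand), Gimap7 (chr6:48718371-48718670, plus strand) and Gimap3 (chr6:48770802-48771101, minus strand), each 5′ to 3′ along its own strand. Capitals mark matches to a motif of Krüppel-like factors (KLF, CCNCNCCC, with N for any base) in Gimap8 and Gimap7 and to a motif of FOXO factors (GTAAACA) in Gimap3.
Gimap8: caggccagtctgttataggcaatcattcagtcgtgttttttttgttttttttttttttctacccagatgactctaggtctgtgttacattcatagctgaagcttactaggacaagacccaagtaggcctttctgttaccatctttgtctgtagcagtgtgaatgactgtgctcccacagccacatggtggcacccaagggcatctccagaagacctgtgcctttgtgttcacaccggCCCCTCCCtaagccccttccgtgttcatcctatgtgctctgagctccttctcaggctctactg
Gimap7: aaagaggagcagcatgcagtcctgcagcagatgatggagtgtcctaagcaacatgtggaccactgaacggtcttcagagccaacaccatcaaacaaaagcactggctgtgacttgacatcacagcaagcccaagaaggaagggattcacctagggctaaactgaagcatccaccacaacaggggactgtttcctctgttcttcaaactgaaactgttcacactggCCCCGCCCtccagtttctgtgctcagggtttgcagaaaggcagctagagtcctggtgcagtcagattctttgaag
Gimap3: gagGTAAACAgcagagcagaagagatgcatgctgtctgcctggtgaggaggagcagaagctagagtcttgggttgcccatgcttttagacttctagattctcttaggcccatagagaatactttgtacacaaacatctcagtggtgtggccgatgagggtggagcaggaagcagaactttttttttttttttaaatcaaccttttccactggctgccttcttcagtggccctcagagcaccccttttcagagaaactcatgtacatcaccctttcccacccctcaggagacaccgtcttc
The KLF match began 13 bases before the start in Gimap8 and 25 bases before it in Gimap7. Searched on both strands, the KLF letters were in 5 of 9 Gimap windows, those of Gimap4, Gimap7, Gimap9 and both windows of Gimap8, which overlap and share a match, against 49.5% of all 32817 promoter windows. The FOXO letters were in 1 of 9 Gimap windows, that of Gimap3, 247 bases before the start, against 3.65% of all windows. The motifs of ETS (CCGGAAG), RUNX (TGTGGTT), AP-1 (TGANTCA) and TCF/LEF (CTTTGAT) factors were in 0 of the 9 Gimap windows, and in 8.86%, 5.27%, 7.81% and 3.73% of all windows, in that order. Such matches describe the letters of these windows and are not sites of binding.

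Each comparison had a table of its own, with 6 libraries normalized together, so values are read within a table. They are regularized log (rlog) values on a log2 scale and give no total per library. The authors' mean normalized counts summed to between 898995 and 1316454 over the genes of a table, and those of the Gimap genes ran between 67.4 and 922.9. Differences were tested with limma at an adjusted p of 0.05 over the 8212 to 9108 genes of a table with a mean normalized count of at least 10. Foxp3, which defines Tregs, was 8.95 to 9.94 in all libraries and tables, and its difference was between -0.06 and 0.14 in the 4 comparisons, with limma adjusted p of at least 0.812. T cell genes were strong: the authors' FPKM of the 9 genes of Treg and T cell identity summed to between 4160 and 6400 per group. Against this, summed FPKM was at most 10.9 for 8 B cell markers, 21.1 for 8 markers of NK and CD8 T cells, 41.0 for myeloid cells and 12.5 for endothelial cells, and it ran between 5.97 and 41.2 for 10 endocrine islet markers. The acinar markers of the exocrine pancreas summed to 235 to 380 in islet groups and 11.2 to 13.6 in spleen groups, with Prss1 and Amy2a5 at 0 in all groups.

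The Gimap genes differed widely in level, and their order was nearly the same in the 4 groups. Levels between genes are compared per length, with the authors' FPKM (fragments scaled by transcript length and library size), which has 1 value per group in each table and no spread. In the authors' deposited tables, Gimap7, whose human protein forms dimers that stimulate GTP hydrolysis, ranked highest in each group, with FPKM between 308.0 and 613.8. Gimap4, which speeds the death of T cells in mice, Gimap3, the close relative of Gimap5, and Gimap1 took ranks 2 to 4 in an order that changed with the group. Gimap6 ranked 5 (FPKM between 142.6 and 243.3 in the authors' deposited tables), Gimap9 ranked 6 (84.7 to 135.9) and Gimap8, the family member with several GTPase domains in a row, ranked 7 (38.5 to 82.3). Gimap5, the gene whose loss shortens T cell life in rats and mice, ranked lowest throughout, with FPKM between 20.2 and 39.6 in the authors' deposited tables. Gimap7 made up 32.7% of the summed Gimap FPKM in islet 4-8, 27.7% in islet 12-4.4m1, 25.8% in spleen 4-8 and 20.8% in spleen 12-4.4m1, in the authors' deposited tables. Neighbours in this order with close values, such as Gimap1 (279.3) and Gimap3 (255.8) in islet 4-8 in the authors' deposited table, cannot be told apart without replicate values.

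**Figure D1:**
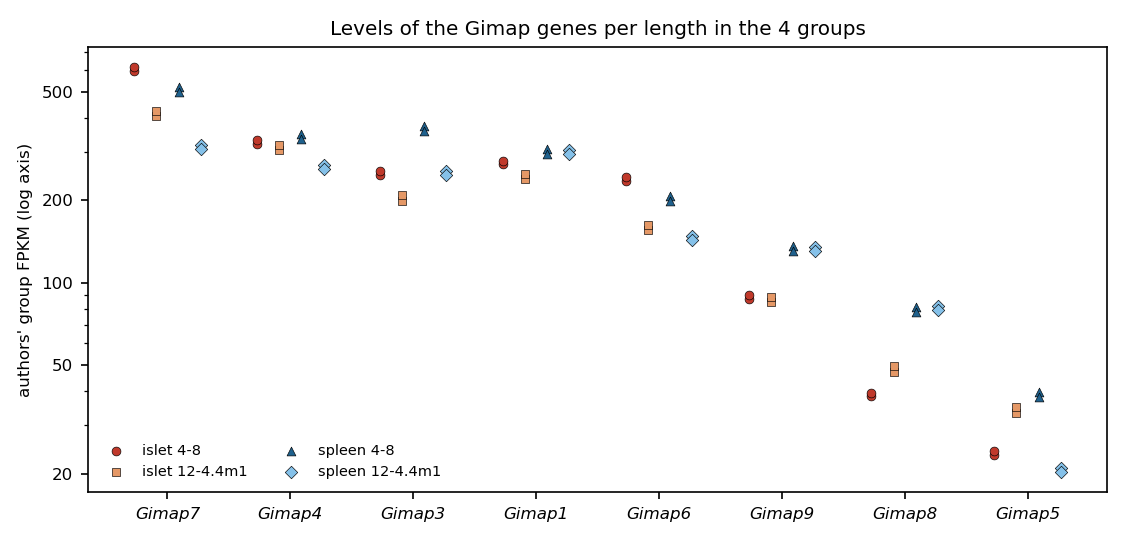
FPKM of the 8 Gimap genes (log axis) in islet 4-8, islet 12-4.4m1, spleen 4-8 and spleen 12-4.4m1 Tregs; each group has 2 points per gene, since the authors give it in 2 tables, and there are no error bars because FPKM has no replicates here. Gimap7 is highest and Gimap5 lowest in every group, and the islet points of Gimap8 and Gimap9 lie below the spleen points.

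Some of these transcripts share sequence or exons with others, which may limit how reads could be assigned. In GENCODE vM21, 36.0% of the exon bases of Gimap1 overlap exons of Gm28053, a gene on the same strand that also overlaps exons of Gimap7 and Gimap5, or of Gimap1os on the opposite strand. Whether the counting used strand is not given in the sources used here, so reads of Gimap1 and Gimap1os may not be separated, and values of Gimap1 are uncertain. Gimap3 and Gimap5 share 190 stretches of 50 bases, which are 7.52% of those of Gimap3 and 4.53% of those of Gimap5. Each of the other 5 genes shared at most 1.4% of such stretches with any gene.

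The comparison of islets with spleen asks how Tregs of the same TCR differ between the tissue that holds their antigen and a lymphoid organ. In 4-8 Tregs, Gimap8 fell in islets by 0.74 on the log2 scale, and it was the single Gimap gene of 8 that passed, against 7.98% of all genes tested in either direction and 2.84% lower. A count of 1 in 8 is near the share in either direction. It is above the share lower, but rests on 1 gene. Gimap8 was 7.60, 7.94 and 7.33 in islet 4-8 libraries 1 to 3, against 8.43, 8.19 and 8.44 in spleen 4-8 libraries 1 to 3. All islet libraries lay below all spleen libraries. The means were 7.62 ± 0.30 in islets and 8.36 ± 0.14 in spleen (SD of n = 3 libraries each), a difference of -0.74 ± 0.17 SE with a limma adjusted p = 0.0119. In bulk RNA, fewer cells with a transcript and less transcript per cell cannot be told apart. In the authors' deposited tables the FPKM of Gimap8 was 39.6 in islet 4-8 and 78.0 in spleen 4-8, with a log2 fold change of -1.01 by DESeq2 (adjusted p = 0.00232) and a Cuffdiff q of 0.001. The direction held in all 16 alternative settings. The call was lost without spleen 4-8 replicate 1 (limma adjusted p = 0.0788) or replicate 3 (limma adjusted p = 0.0728). Islet 4-8 replicate 2 is titled in another style than the rest of this table, and without it Gimap8 differed by -0.89 (limma adjusted p = 0.000656).

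Gimap9 and the related pair Gimap3 and Gimap5 were also lower in every islet 4-8 library than in any spleen 4-8 library, and none of them passed. The 4 Gimap genes whose groups did not overlap, Gimap8 among them, were all lower in islets, against 13.1% of all genes tested that were separated in that direction and 27.4% in either. At an unadjusted p under 0.05 there were 3 Gimap genes, Gimap8, Gimap3 and Gimap9, against 22.2% of all genes. Gimap3 was 9.54, 9.60 and 9.63 in islet 4-8 and 9.95, 9.96 and 9.96 in spleen 4-8, a small gap with little scatter (-0.36 ± 0.13 SE, limma adjusted p = 0.0973). Gimap3 passed without islet 4-8 replicate 2 (limma adjusted p = 0.0483) and with quantile normalization (-0.53, limma adjusted p = 0.00748). Gimap9 was 7.35, 7.03 and 7.56 in islet 4-8 and 7.79, 7.59 and 7.62 in spleen 4-8 (-0.36 ± 0.17 SE, limma adjusted p = 0.221). Its highest islet library lay just below its lowest spleen library. Gimap5 was 6.59 ± 0.08 in islets and 6.83 ± 0.03 in spleen (SD of n = 3 libraries each; -0.24 ± 0.16 SE, limma adjusted p = 0.391).

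The other 4 Gimap genes overlapped between islet and spleen 4-8 Tregs. Gimap7 was 9.66, 9.51 and 10.06 in islets and 9.43, 9.64 and 9.64 in spleen, a difference of 0.17 with a 95% confidence interval of -0.16 to 0.50. Gimap6 was 8.95 ± 0.24 in islets and 8.73 ± 0.14 in spleen (difference 0.23, interval -0.10 to 0.55). Gimap4 was 8.79 ± 0.20 in islets and 8.88 ± 0.11 in spleen (difference -0.09, interval -0.40 to 0.22), and Gimap1 was 8.92 ± 0.28 and 8.96 ± 0.05 in the same order of tissues (difference -0.04, interval -0.36 to 0.29). Such intervals do not show that these genes were alike in both tissues. Over the 8 Gimap genes the median difference was -0.17, beside -0.01 over all genes tested, with 2 genes above 0 and 6 below.

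In 12-4.4m1 Tregs, 0 of the 8 Gimap genes passed limma, against 6.81% of all genes tested, and Gimap8 came closest. At an unadjusted p under 0.05 there were 3 Gimap genes, Gimap8 and Gimap9 lower and Gimap7 higher in islets, against 20.3% of all genes. By the authors' tables, DESeq2 called 0 Gimap genes and Cuffdiff called Gimap8. Gimap8 was 7.74, 7.09 and 7.66 in islet 12-4.4m1 libraries 1 to 3, against 8.06, 7.93 and 7.98 in spleen 12-4.4m1 libraries 1 to 3. Replicate 2 stood lowest among the islet libraries, and the groups did not overlap. The difference was -0.50 ± 0.17 SE (limma adjusted p = 0.0816), and in the authors' deposited table the FPKM was 49.4 in islets and 79.3 in spleen (Cuffdiff q = 0.0163). Gimap8 passed without islet 12-4.4m1 replicate 1 (limma adjusted p = 0.0466) or replicate 3 (limma adjusted p = 0.0382). Without replicate 2 its difference was -0.29 (limma adjusted p = 0.322).

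Gimap9 was 6.71, 6.72 and 6.90 in islet 12-4.4m1 and 7.10, 7.13 and 7.14 in spleen 12-4.4m1 (-0.35 ± 0.16 SE, limma adjusted p = 0.217). Like Gimap8, it was lower in every islet library. These were the 2 Gimap genes without overlap, against 10.9% of all genes separated in that direction and 24.1% in either. A count of 2 in 8 is near the share in either direction. It is above the share in that direction, but rests on 2 genes. Gimap7 was 8.58, 8.61 and 9.07 in islets and 8.62, 8.38 and 8.27 in spleen (0.33 ± 0.16 SE, limma adjusted p = 0.244), with overlapping libraries. Gimap5 varied most: it was 5.51, 6.70 and 6.04 in islets, against 5.93, 5.80 and 5.78 in spleen (0.25 ± 0.22 SE, limma adjusted p = 0.586). Islet replicate 2 carried that difference, which was -0.06 without it. Gimap3 (-0.13), Gimap1 (-0.23), Gimap4 (0.16) and Gimap6 (0.17) had overlapping groups and limma adjusted p between 0.517 and 0.685. The median difference of the 8 Gimap genes was 0.015, beside 0.00 over all genes, with 4 above 0 and 4 below.

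Set side by side, Gimap8 differed by -0.74 between islets and spleen in 4-8 and by -0.50 in 12-4.4m1, and Gimap9 by -0.36 and -0.35. Gimap5 differed by -0.24 in 4-8 and 0.25 in 12-4.4m1. Whether any of these tissue differences depends on the TCR was not tested, since the tables were normalized separately. The islet libraries of 12-4.4m1 replicates 1 and 2 share that title style, so that a fit within 1 style would leave 1 islet library of that TCR. The submitters' description of spleen replicate 2 of each TCR names the tissue table of the other TCR, and these libraries were assigned by their titles.

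**Figure D2:**
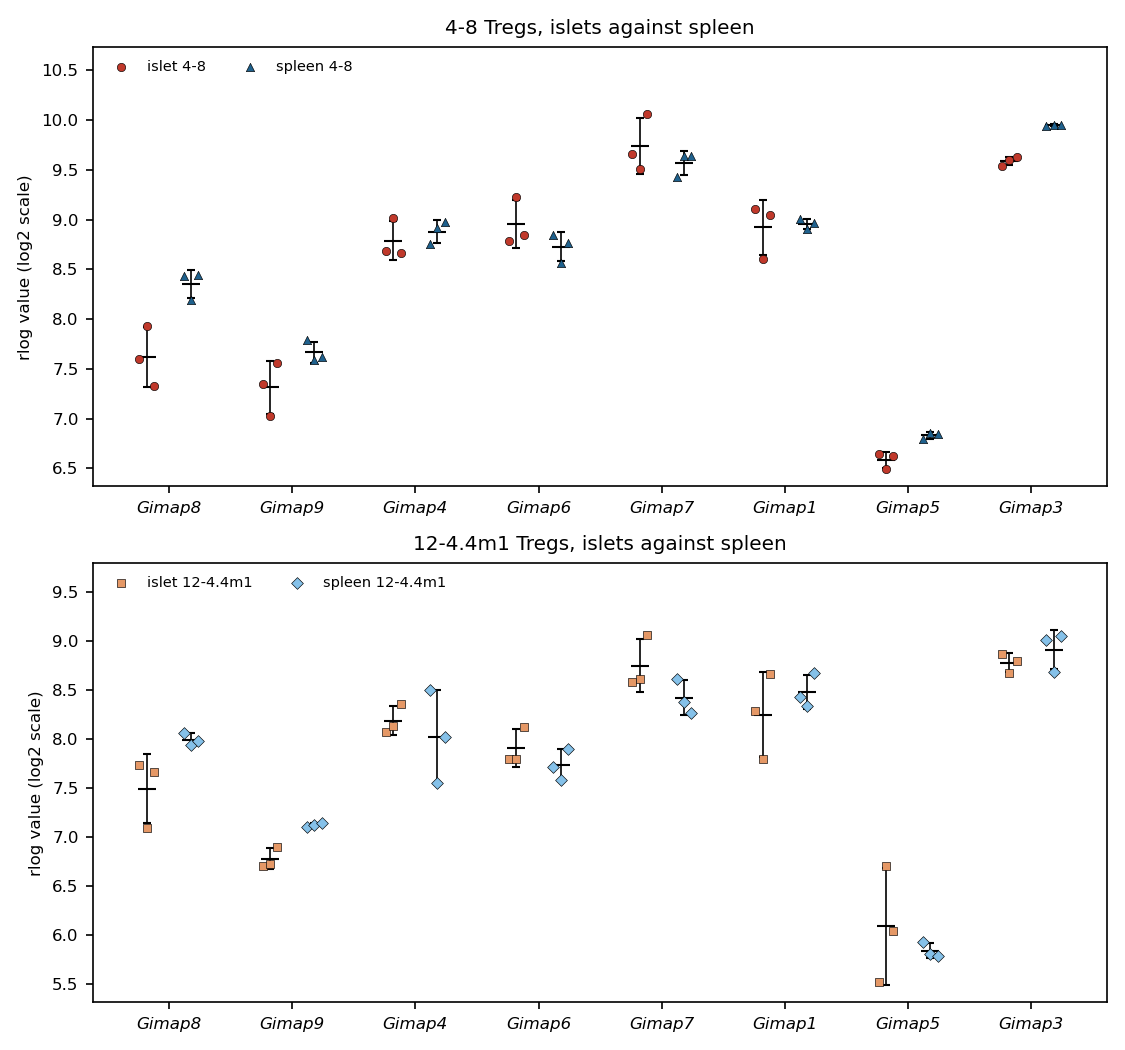
rlog values (log2 scale) of the 8 Gimap genes, in genome order, in islet and spleen Tregs of 4-8 (upper panel) and 12-4.4m1 (lower panel); points are libraries, and bars give the mean and SD of 3 libraries. The islet points of Gimap8 and Gimap9 lie below all spleen points in both panels, while those of Gimap7 and Gimap6 overlap the spleen points.

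Genes listed for pathways linked to GIMAPs did not share a direction in these comparisons. Of 21 tested genes of the survival, autophagy, IL-7 and FOXO pathways, 1 rose and 2 fell in islet 4-8 Tregs, with a median difference of 0.12. The share of all genes tested that passed in either direction was 7.98% there and 6.81% in 12-4.4m1. The gene that rose was Stat5a, a transcription factor downstream of IL-7 and IL-2 (0.84 ± 0.17 SE, limma adjusted p = 0.00459). Those that fell were Il7r, the IL-7 receptor chain (8.09 in islets and 9.57 in spleen, -1.48 ± 0.18 SE, limma adjusted p = 5.12e-05), and Atg5, an autophagy gene (-0.59 ± 0.17 SE, limma adjusted p = 0.0396). In 12-4.4m1, Stat5a rose (0.74, limma adjusted p = 0.00893) and Il7r fell (-1.87, limma adjusted p = 7.42e-07), the 2 of 21 genes that passed, with a median of 0.21. Bcl2, which protects lymphocytes from death, differed by -0.14 in 4-8 (limma adjusted p = 0.791) and 0.22 in 12-4.4m1 (limma adjusted p = 0.578). Bcl2l11, which encodes the death-promoting protein BIM, differed by 0.39 (limma adjusted p = 0.245) and 0.44 (limma adjusted p = 0.221) in the same comparisons.

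Gimap transcripts are typical of resting lymphocytes, and 20 genes listed for that state, Il7r among them, were mixed as well. In islet 4-8 Tregs 5 rose and 6 fell, with a median of -0.18, and in islet 12-4.4m1 Tregs 4 rose and 3 fell, with a median of 0.14. Of all genes tested, 7.98% passed in either direction in 4-8 and 6.81% in 12-4.4m1, so this list passed more often. Klf3, a Krüppel-like transcriptional repressor, differed by -2.09 in 4-8 and -1.09 in 12-4.4m1, and Txnip by -1.37 and -1.04. Klf2, which promotes exit from tissues, fell in 4-8 (-0.76, limma adjusted p = 0.0258) and was -0.49 in 12-4.4m1 (limma adjusted p = 0.0828), and S1pr1, a receptor for exit, fell in 4-8 (-1.07) and was -0.54 in 12-4.4m1 (limma adjusted p = 0.0976). The antiproliferative genes Btg1 (0.66 and 0.80) and Btg2 (0.68 and 0.78) and the chemokine receptor Ccr7 (1.23 and 1.21) rose in islets in 4-8 and in 12-4.4m1, and Tob1 (0.80) and Tsc22d3 (0.82) rose in 4-8 and Satb1 (0.95) in 12-4.4m1. Of the interferon-inducible GTPases, which are not in the Gimap cluster, 3 of 13 fell and 0 rose in 4-8, against 2 of 14 that fell and 1 that rose in 12-4.4m1. Gbp7 (-0.62 and -0.64) and Irgm2 (-0.72 and -0.74) fell in 4-8 and in 12-4.4m1, Gbp4 fell in 4-8 (-0.78), and Igtp rose in 12-4.4m1 (0.80).

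Heat shock and early response genes, listed because they can move with tissue digestion, also differed between the tissues. Whether digestion moved them here was not tested. Of 16 such genes, 15 rose in islets in each TCR, with medians of 1.66 in 4-8 and 1.75 in 12-4.4m1. Their mean rlog value, centred on the 6 libraries of a table, was 0.95 to 1.06 in islet 4-8 and -1.05 to -0.97 in spleen 4-8, and 0.87 to 1.21 in islet 12-4.4m1 against -1.23 to -0.94 in spleen 12-4.4m1. Of 6 acinar genes tested, 4 rose in islets in 4-8 and 5 in 12-4.4m1. Pecam1, an endothelial marker that some T cells also carry, fell in 4-8 (4.24 in islets and 4.91 in spleen, limma adjusted p = 0.0367) and was -0.48 in 12-4.4m1 (limma adjusted p = 0.181). The summed FPKM of 10 endothelial markers in the authors' deposited tables was 3.49 in islet 4-8 and 10.5 in spleen 4-8, with Cdh5, Emcn, Esam, Tek and Tie1 at 0 in both, and 11.4 in islet 12-4.4m1 and 12.1 in spleen 12-4.4m1. That of 8 B cell markers was 3.25 in islet 4-8 and 10.4 in spleen 4-8, and 1.40 in islet 12-4.4m1 and 9.94 in spleen 12-4.4m1, with Blnk and Pax5 at 0 in all, in the authors' deposited tables. The part of any of these in the Gimap differences was not tested.

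The comparison of TCRs asks how Tregs of the high affinity receptor differ from those of the low affinity receptor in the same organ. In spleen, Gimap7 rose in 4-8 Tregs, 1.45-fold in rlog values, and was the single Gimap gene of 8 that passed, against 0.428% of all genes tested in either direction and 0.209% higher. Gimap7 was 9.41, 9.64 and 9.65 in spleen 4-8 libraries 1 to 3, against 9.22, 8.99 and 8.88 in spleen 12-4.4m1 libraries 1 to 3. All 4-8 libraries lay above all 12-4.4m1 libraries. The means were 9.57 ± 0.14 in 4-8 and 9.03 ± 0.17 in 12-4.4m1 (SD of n = 3 libraries each), a difference of 0.54 ± 0.12 SE with a limma adjusted p = 0.0401. In the authors' deposited tables the FPKM of Gimap7 was 518.4 in 4-8 and 319.4 in 12-4.4m1, with a log2 fold change of 0.62 by DESeq2 (adjusted p = 0.0315) and a Cuffdiff q of 0.00793. The difference stayed between 0.46 and 0.70 in 17 alternative settings, of which 10 kept the call. The call was lost without spleen 4-8 replicate 2 (limma adjusted p = 0.168) or 3 (0.288), without spleen 12-4.4m1 replicate 2 (0.208) or 3 (0.138), and without a mean-variance trend (0.0756). The submitters' descriptions of both replicate 2 libraries name the tissue table that belongs to the other TCR, and without both of them the limma adjusted p was 0.414.

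Xist, a transcript of female cells, differed between the same groups of spleen libraries. It was 7.33, 8.39 and 9.46 in spleen 4-8 and 8.70, 10.92 and 10.74 in spleen 12-4.4m1. With the Xist level in the fit, the difference of Gimap7 was 0.49 ± 0.16 SE (limma adjusted p = 0.373). Of 11 heat shock and early response genes tested in this comparison 0 passed limma, with a median of -0.17, and Cuffdiff called 1 lower in 4-8. Of the 11, 4 had an unadjusted p under 0.05, against 7.93% of all genes.

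Gimap3, Gimap5 and Gimap6 were also higher in every spleen 4-8 library than in any spleen 12-4.4m1 library, without passing. With Gimap7 these made 4 Gimap genes separated in that direction, against 6.79% of all genes tested and 13.3% in either direction. The same 4 had an unadjusted p under 0.05, against 7.93% of all genes. Gimap3 was 10.04, 10.06 and 10.07 in 4-8, against 9.67, 9.34 and 9.71 in 12-4.4m1 (0.48 ± 0.12 SE, limma adjusted p = 0.0733). The 4-8 libraries of Gimap3 were almost equal, and its 12-4.4m1 libraries were spread by replicate 2. Gimap3 passed without spleen 12-4.4m1 replicate 1 (limma adjusted p = 0.0456) or 3 (0.0375) and with robust estimation (0.0373), and the authors' deposited table gave a Cuffdiff q of 0.0193. Gimap5 was 6.82, 6.89 and 6.88 in 4-8, against 6.58, 6.47 and 6.48 in 12-4.4m1 (0.36 ± 0.12 SE, limma adjusted p = 0.326). In the authors' deposited tables its log2 difference was 0.50 by DESeq2 and 0.92 in FPKM, with 39.6 FPKM in 4-8 and 21.0 in 12-4.4m1 (Cuffdiff q = 0.0752). Gimap6 was 8.84, 8.55 and 8.77 in 4-8, against 8.33, 8.21 and 8.51 in 12-4.4m1 (0.37 ± 0.12 SE, limma adjusted p = 0.324). The gap between the nearest libraries of Gimap6 was the smallest of the 4 genes.

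Gimap4 had a similar difference and wider scatter in spleen. It was 8.81, 8.99 and 9.05 in 4-8, against 9.11, 8.16 and 8.63 in 12-4.4m1 (0.32 ± 0.16 SE, limma adjusted p = 0.650), so that its highest library was in 12-4.4m1. Gimap8, Gimap9 and Gimap1 had differences near 0: -0.05 (95% confidence interval -0.29 to 0.20), 0.04 (-0.21 to 0.29) and -0.02 (-0.27 to 0.22). The median of the 8 Gimap genes in spleen was 0.34, beside 0.00 over all genes, with 6 above 0 and 2 below.

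In islets, 0 of the 8 Gimap genes passed limma between the TCRs, against 0.365% of all genes tested. The authors' DESeq2 and Cuffdiff tables also called 0 Gimap genes there. At an unadjusted p under 0.05 there was 1 Gimap gene, Gimap6, against 6.78% of all genes. Gimap6 was 8.18, 8.66 and 8.24 in islet 4-8, against 7.82, 7.80 and 8.14 in islet 12-4.4m1 (0.44 ± 0.19 SE, limma adjusted p = 0.652). Its groups did not overlap, nor did those of Gimap3, which was 8.87, 8.94 and 8.96 in 4-8 and 8.79, 8.59 and 8.71 in 12-4.4m1 (0.23 ± 0.18 SE, limma adjusted p = 0.860). These were 2 Gimap genes separated in that direction, against 5.92% of all genes and 11.9% in either. Gimap7 was 9.06, 8.91 and 9.49 in 4-8, against 8.59, 8.61 and 9.08 in 12-4.4m1 (0.39 ± 0.20 SE, limma adjusted p = 0.748), with a 95% confidence interval of -0.01 to 0.79. Gimap8 was 6.95 ± 0.30 in 4-8 and 7.23 ± 0.35 in 12-4.4m1 (SD of n = 3 libraries each; -0.28 ± 0.21 SE, limma adjusted p = 0.850). Gimap1 (0.18), Gimap4 (0.06), Gimap9 (0.04) and Gimap5 (-0.08) overlapped and had limma adjusted p of at least 0.918. The median of the 8 Gimap genes in islets was 0.12, beside 0.00 over all genes.

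Heat shock and early response genes lay lower in islet 4-8 than in islet 12-4.4m1 Tregs. Their median difference was -0.33, with 1 of 16 above 0. Of the 16, 0 passed limma while 8 had an unadjusted p under 0.05, against 6.78% of all genes. Nearest to the threshold were the HSP70 chaperone genes Hspa1a (-0.78, limma adjusted p = 0.0722) and Hspa1b (-0.75, limma adjusted p = 0.0829). The number called lower in 4-8 was 3 by DESeq2 and 2 by Cuffdiff in the authors' deposited tables, and 3 with Xist or with title style in the fit. The part of these genes in the Gimap values was not tested.

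**Figure D3:**
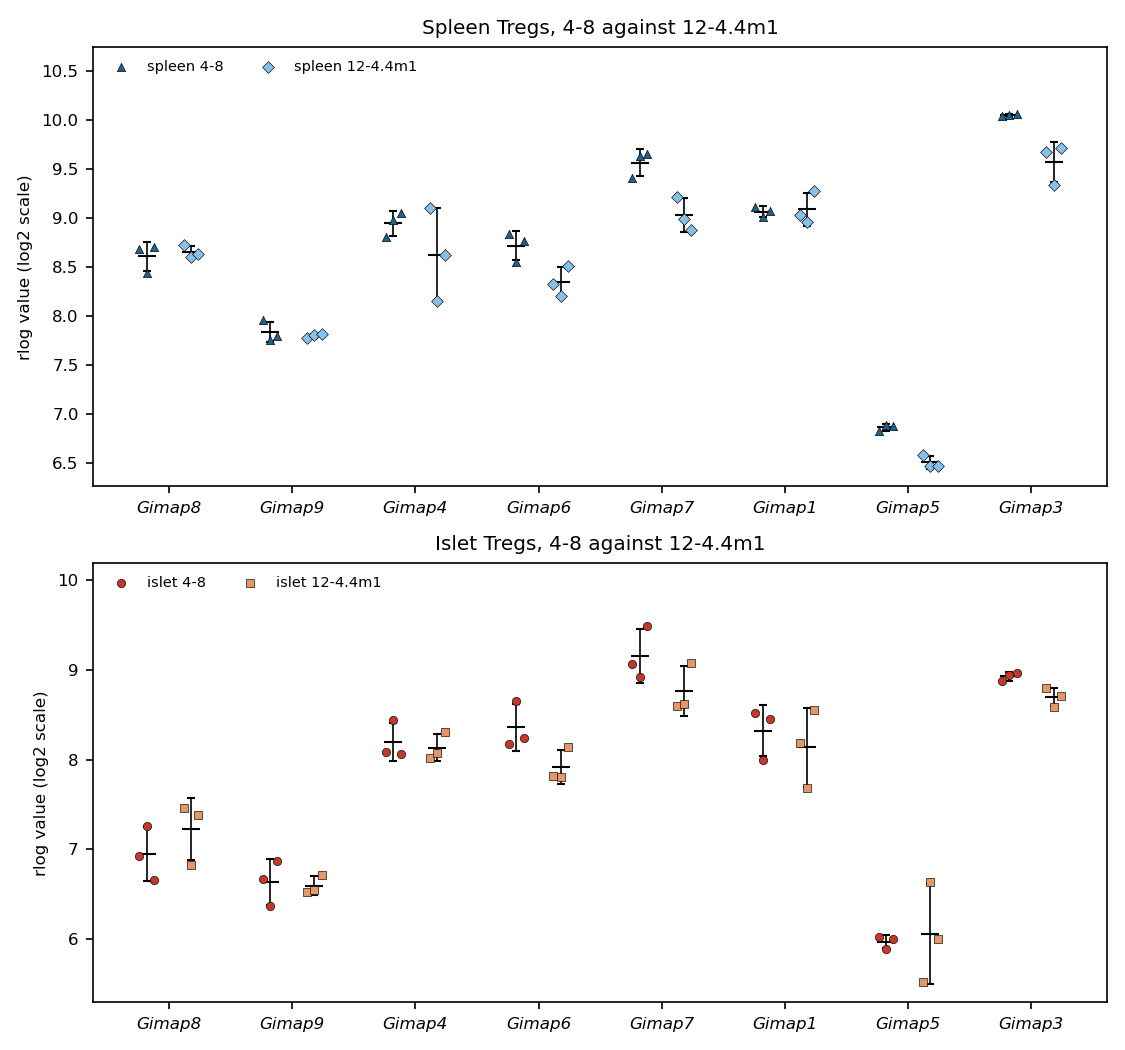
rlog values (log2 scale) of the 8 Gimap genes, in genome order, in 4-8 and 12-4.4m1 Tregs of spleen (upper panel) and islets (lower panel); points are libraries, and bars give the mean and SD of 3 libraries. In spleen the 4-8 points of Gimap6, Gimap7, Gimap5 and Gimap3 lie above all 12-4.4m1 points, and in islets those of Gimap6 and Gimap3 do.

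Side by side, Gimap7 differed by 0.54 between the TCRs in spleen and 0.39 in islets, Gimap3 by 0.48 and 0.23, and Gimap6 by 0.37 and 0.44. Whether a TCR difference depends on the tissue was not tested. Of the survival, resting and interferon-inducible GTPase lists, 0 genes passed limma between the TCRs in either tissue, with medians between -0.09 and 0.12. At an unadjusted p under 0.05 there were, in that order of lists, 1 of 21, 6 of 19 and 0 of 13 in islets, against 6.78% of all genes. In spleen there were 1 of 20, 4 of 20 and 1 of 14, against 7.93% of all genes. The resting list was above the share of all genes in both tissues. Cuffdiff called 1 of the resting genes higher in 4-8 in spleen. Il7r differed by -0.21 in spleen (limma adjusted p = 0.796) and 0.12 in islets (limma adjusted p = 0.961), Bcl2 by 0.35 (limma adjusted p = 0.711) and 0.01 (limma adjusted p = 0.996), and Bcl2l11 by 0.15 (limma adjusted p = 0.846) and 0.10 (limma adjusted p = 0.969). Comparisons that share a group share its libraries, so the 4 sets of differences are not independent.

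**Figure D4:**
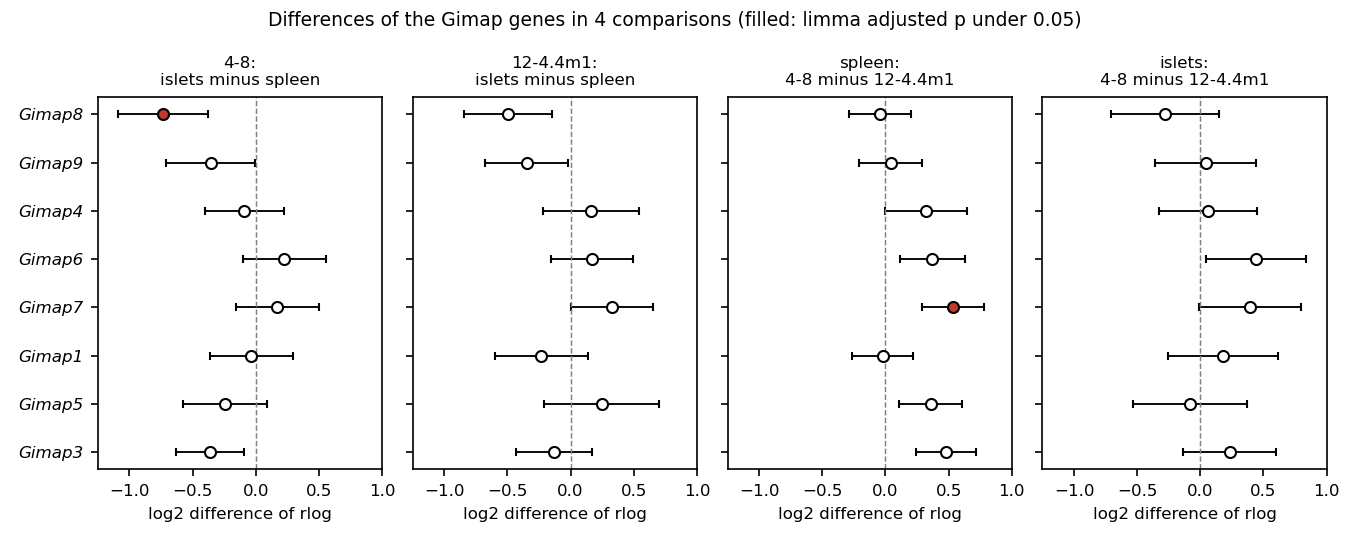
Differences of the 8 Gimap genes in the 4 comparisons (log2 units; islets minus spleen in the 2 left panels, 4-8 minus 12-4.4m1 in the 2 right panels) with 95% confidence intervals from limma; filled points passed an adjusted p of 0.05. The filled points are Gimap8 in 4-8 islets against spleen (-0.74) and Gimap7 in spleen 4-8 against 12-4.4m1 (0.54).

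The Gimap genes did not vary as a block over the libraries. Across the 28 pairs of Gimap genes, the median Pearson r over the 6 libraries of a table was 0.07 in the 4-8 tissue table, 0.165 in the 12-4.4m1 tissue table, 0.28 in the spleen TCR table and 0.07 in the islet TCR table. Such correlations include the differences between groups and the shared normalization of a table. The strongest was between Gimap5 and Gimap7 in the spleen TCR table (r = 0.972), where Gimap3 and Gimap5 had r = 0.917. In that table all pairs among Gimap3, Gimap4, Gimap5, Gimap6 and Gimap7 had r between 0.501 and 0.972. Pairs there with Gimap1, Gimap8 or Gimap9 ran from -0.348 to 0.56. This subset was picked from the same values. In the 4-8 tissue table, Gimap3 and Gimap5, which share sequence, had r = 0.897, whereas Gimap5 and Gimap6 had r = -0.828. Among 8290 other genes, those with a profile over 6 libraries among the most like the mean Gimap profile in both tissue tables included Zswim1, Zcchc7, Zdhhc2, Arhgef10 and Map3k3, with the lower r of the tables between 0.815 and 0.874. None of these 5 passed in any comparison in which it was tested. They were picked for a high r among all 8290 genes, so their r was high by the choice.

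Few genes next to the cluster were tested, and none passed. Of 22 other protein-coding genes within 500 kb of the Gimap cluster, 7 or 8 were tested in a comparison, and 0 passed in any of the 4. Of all genes tested, 0.365% to 7.98% passed in a comparison. A count of 0 among so few genes is near these shares and does not set the neighbours apart. Among them were Repin1, Lrrc61, Atp6v0e2, Zfp467 and Krba1 on the side of Gimap8, and Malsu1, Tra2a and Igf2bp3 on the side of Gimap3. Their median differences were -0.05 and 0.085 between islets and spleen in 4-8 and 12-4.4m1, and 0.05 and -0.03 between the TCRs in spleen and islets. The nearest to the threshold was Lrrc61, at -0.65 in 4-8 islets against spleen (limma adjusted p = 0.0655).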

How the data were processed

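RNA of sorted mouse Tregs was measured in 12 libraries, 3 in each of 4 groups. Per the labels' protocols, cells were lysed in Triton X-100, and cDNA was made, amplified and prepared with Nextera XT. The submitters' processing notes name DESeq, DESeq2 1.1.0, STAR 1.1.0, TopHat 1.0.0 and Cufflinks with mm10 (GRCm38), without the role of each, and the versions are as written there. Depth per library is not given in the sources used here.

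Per the file headers, the authors deposited for each of 4 comparisons the rlog value of each library on a log2 scale, which shrinks genes with low counts towards their mean. The authors' DESeq2 table gives the mean normalized count, a signal per gene, with a log2 fold change, a Wald statistic as the score, a p-value and an adjusted p. Their deposited Cuffdiff table gives FPKM per group with a p-value and q-value. The signs of the authors' DESeq2 fold changes were turned in all 4 comparisons, so that all are islets over spleen or 4-8 over 12-4.4m1. The sign of a comparison was set by the correlation of these fold changes with the limma differences. The direction of DESeq2 in a comparison was thus not read independently of limma.

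Columns were assigned by sample titles, and 0 columns were left out. A 4-8 column of the islet TCR table carries a number found in no title. It was treated as islet 4-8, given last of its group in the text, and its deviations correlated across 8168 genes with those of islet 4-8 replicate 3 of the tissue table (r = 0.992), against -0.332 and -0.697 with replicates 1 and 2. Rows of repeated symbols, 4 in all, were left out.

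Each table was fitted on its own with limma 3.58.1 in R 4.3.3 (lmFit, eBayes with trend), 3 against 3 libraries, 2-sided, with Benjamini-Hochberg adjustment over all genes with a mean normalized count of at least 10. With 3 against 3 libraries, exact permutation gives no p below 0.1, and none was used. The fit was run on simulated data with independent normal noise and added differences. Such data follow the model of the fit and do not test it on the scatter of these libraries. The fit had no block for replicate numbers, which the labels do not tie to mice. Positions are from GENCODE vM21 and promoters from RefSeq, where all 8 genes matched. All 8 Gimap genes are named in every comparison, and list members where they passed, or else those with the smallest p; some genes under this rule and under that of likeness are not reported here. Members, lists and tests were chosen with earlier results of these data known. Tables were read with Python 3.11.15.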

Additional observations from a re-analysis of the deposited data

How the results depend on the processing

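Of 528 values of single Gimap genes under alternative settings, 489 stayed on the same side of the threshold with the same sign, 13 passed newly, 9 no longer passed and 17 changed sign; those that changed sign did not pass in either setting. Leaving out 1 library at a time moved the number of Gimap genes called to 0 to 2 in 4-8 islets against spleen, 0 to 1 in 12-4.4m1 islets against spleen, 0 to 2 between the TCRs in spleen and 0 to 0 in islets. The number of all genes called then ran from 306 to 1211, 288 to 610, 14 to 56 and 9 to 44 in the same comparisons. Between the TCRs in spleen, 0 Gimap genes were called with no mean-variance trend (17 of all genes), with Xist in the fit (19) or without both replicate 2 libraries (11), and 2 with robust estimation or by Cuffdiff (84 of all genes; DESeq2 21). In islets against spleen, quantile normalization called 2 Gimap genes in 4-8 and 1 in 12-4.4m1, Cuffdiff 1 in 12-4.4m1 (1160 of all genes in 4-8, 938 in 12-4.4m1) and Xist in the fit 1 in 12-4.4m1. Between the TCRs in islets, all genes called were 15 at a mean count of at least 50, 57 by Cuffdiff, 50 with Xist and 52 with title style in the fit. The cause of these shifts was not tested.

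Whether same-numbered libraries were paired cannot be told from these values, since deviations were taken from means of 3 libraries. In no comparison were all same-numbered deviations correlated above 0.1 (r from -0.118 to 0.209). Between the TCRs in spleen each library correlated best with its own number (0.0748 to 0.12), a hint from the data and not the design. With the replicate block, 2 Gimap genes were called between the TCRs in spleen (78 of all genes) and 1 in 12-4.4m1 islets against spleen, and 2 heat shock genes were called lower in 4-8 between the TCRs in islets.

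Ranges that crossed 0 with 1 library left out were, between the TCRs in islets, -0.049 to 0.39 (Gimap1), -0.059 to 0.15 (Gimap4), -0.35 to 0.21 (Gimap5) and -0.076 to 0.18 (Gimap9). In spleen they were -0.090 to 0.071 (Gimap1), -0.093 to 0.041 (Gimap8) and -0.020 to 0.079 (Gimap9). In islets against spleen they were -0.13 to 0.12 (Gimap1) in 4-8, and -0.073 to 0.40 (Gimap4) and -0.061 to 0.53 (Gimap5) in 12-4.4m1. Other changes of sign were Gimap9 to -0.028 (Xist) or -0.055 (title style) and Gimap1 to -0.0046 (title style) in islets, Gimap1 to 0.0072 (Cuffdiff) and Gimap8 to 0.016 (both replicate 2 libraries left out) in spleen, and Gimap1 to 0.017 (Xist) in 4-8 islets against spleen.

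Depth per library is unknown. For Gimap5, the gene with the lowest counts, the log2 differences between the TCRs in islets were -0.08 in rlog values, -0.13 by DESeq2 and -0.51 in FPKM, and in islets against spleen -0.24, -0.36 and -0.65 in 4-8 and 0.25, 0.39 and 0.79 in 12-4.4m1; the cause was not tested. A Gimap difference that missed the threshold with 3 libraries a group is not shown to be absent.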
